A study of Mus musculus with 2 samples.

Results

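Il7r positive cells are here the GD2TIF cells that carried 2 or more Il7r molecules in the RNA library, set against cells in which no Il7r molecule was detected. Both classes were drawn from cell barcodes with at least 2000 unique molecular identifiers (UMIs, each a counted RNA molecule) and under 20% mitochondrial UMIs. Of 10387 barcodes 4801 met this rule, and 248 of them (5.17%) had 2 or more Il7r UMIs, 439 (9.14%) had 1 and 4114 (85.7%) had 0. The rule sorts cells by their own Il7r count, so the Il7r levels describe the choice, every gene difference between the classes is a description, and no test was run between cells of 1 library.

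Both classes came from the same sorted cells and share every manipulation. GD2TIF cells are mouse T cells from a Cas9 transgenic donor strain that were activated and then given a retrovirus that targets Bcor and Zc3h12a and carries a GD2 CAR, a chimeric antigen receptor built on the 14g2a antibody to the ganglioside GD2. They were transferred into immunocompetent C57BL/6 mice, recovered from spleen 2 months later by sorting CD8+Thy1.1+ cells, and read as 1 library of RNA and 1 of T cell receptors (TCR), with no unedited or untreated group. The labels give neither the age nor the number of the recipient mice, so differences between mice and between cells of 1 mouse cannot be told apart.

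Il7r encodes the alpha chain of the interleukin 7 receptor, which pairs with the common gamma chain encoded by Il2rg. Interleukin 7 binding activates Jak1 and Jak3 and then Stat5, and this signal keeps naive and memory T cells alive in part through Bcl2. T cells lower Il7r after activation, memory precursors regain it, and exhausted cells keep little of it. In the mouse RefSeq annotation of GRCm38.p6, Il7r (ENSMUSG00000003882) lies on chromosome 15 from 9506159 to 9529941, and Dapl1, a gene of naive and stem-like CD8 T cells, on chromosome 2 from 59484653 to 59505020.

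The classes were alike in depth. The median was 2711 UMIs and 1245.5 genes per Il7r positive cell, and 2621.5 UMIs and 1242 genes per undetected cell. The median mitochondrial share was 3.24% and 3.31%, and ribosomal protein genes took 19.9% and 18.4% of all UMIs. All 6 markers of CD8 T cells (Cd3d, Cd3e, Cd3g, Trac, Cd8a, Cd8b1) were present in the Il7r positive cells, from 194 counts per 1000000 UMIs (CPM) for Cd8a to 1323 for Cd3e, and 245 of the 248 cells held UMIs of at least 2 of them. Markers of B cells, natural killer cells, and monocytes or dendritic cells summed to 26.4, 2.64 and 0 CPM in the Il7r positive cells, with Cd79a, Ms4a1, Ncr1 and Lyz2 at 0. Some genes of other lymphocytes stood higher than in the undetected cells. Trdc, the constant segment of the delta TCR chain, was at 17.2 CPM (13 UMIs) against 2.61, Cd40lg, the CD40 ligand of helper T cells, at 25.1 against 5.70, and Gata3, a factor of helper T cells and innate lymphoid cells, at 77.8 against 55.6. The 4 markers of CD4 T cells summed to 47.5 CPM against 27.0 with Foxp3 at 0, and the 5 markers of innate lymphoid cells to 94.99 against 72.0 with Il1rl1 and Il17rb at 0. Of the 248 cells, 0 held 2 CD4 T cell markers and 2 held 2 innate lymphoid markers, and the part of these transcripts in the results was not tested.

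An undetected cell is not an Il7r negative cell at this depth. Il7r stood at 76.8 CPM over the 4801 cells, less than 1 UMI in a typical cell. Most Il7r positive cells lie at the threshold: 154 of them had exactly 2 Il7r UMIs and 94 had 3 to 7, and just outside it are the 439 cells with 1. The share of Il7r positive cells was 4.44% from 2000 to below 2500 UMIs, 5.38% from there to below 3000, 6.02% to below 4000 and 5.71% from 4000. The other threshold leaves out shallower cells: from 1500 to below 2000 UMIs, 78 of 2735 barcodes had 2 or more Il7r UMIs. Il7r UMIs were nevertheless gathered in some cells more than those of most genes. After each cell was thinned at random to 2000 UMIs, the variance of Il7r over cells was 1.86 times its mean, while 1762 genes of like level had a median of 1.24 and a 95th percentile of 1.43, and 16 of them lay above Il7r. Of the 28 B cell-like cells, those with at least 2 B cell markers (median 2459 UMIs), 12 also had a TCR contig, so they are not a clean set of B cells. Of these 28, 1 had an Il7r UMI (3.57%, exact 95% interval 0.0904% to 18.3%) and 0 had 2. Among all 4801 cells, 687 had an Il7r UMI (14.3%, 13.3% to 15.3%). That share lies inside the interval of the 28 cells, so they cannot show whether Il7r UMIs are particular to T cells. These 95% intervals, like all that follow, reflect counting error alone.

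The TCR library is a readout the rule did not use. Cells were grouped into families by the nucleotide sequence of the CDR3 of the TCR beta chain (TRB), the loop that differs between T cell clones, where a barcode had exactly 1 productive TRB. Such a TRB was found for 95 of the 248 Il7r positive cells (38.3%, 32.2% to 44.7%) and for 1783 of the 4114 undetected cells (43.3%, 41.8% to 44.9%). The sequences of 4 families are printed because the results turn on them: family 4 had the lowest and family 11 the highest Il7r level of the 11 families of at least 30 cells, and families 1 and 2 are by far the largest. Families are numbered by their size in the TCR library. Letters in lower case are shared at either end with at least 3 other CDR3s that use the same V or J segment. Capitals are the letters between them. They are not all particular to a clone, since the run GGACA occurs in all 4 printed stretches of capitals.
Family 1, TRBV15 with TRBJ1-1: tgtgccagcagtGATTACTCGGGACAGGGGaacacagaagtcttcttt
Family 2, TRBV12-2+TRBV13-2 with TRBJ2-3: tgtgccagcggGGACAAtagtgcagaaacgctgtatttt
Family 4, TRBV17 with TRBJ1-1: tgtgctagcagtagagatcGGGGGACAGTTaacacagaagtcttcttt
Family 11, TRBV12-2 with TRBJ1-1: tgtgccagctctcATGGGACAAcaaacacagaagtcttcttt

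Il7r positive cells were not spread over TRB families as the undetected cells were. Family 1, the largest, held 9 of the 95 Il7r positive cells with a family (9.47%, 4.42% to 17.2%) and 445 of the 1783 undetected ones (24.96%, 23.0% to 27.0%), and these intervals did not overlap. Family 2 went the other way, with 29 Il7r positive cells (30.5%, 21.5% to 40.8%) against 21.9% (19.97% to 23.9%) of the undetected cells, intervals that overlap. Family 11 held 6 Il7r positive cells among its 37 cells (16.2%, 6.19% to 32.0%), and made up 6.32% of the Il7r positive cells against 1.51% of the undetected ones. Family 4, with 116 cells, held 1 Il7r positive cell, as did family 3 with 103 cells. By V segment, TRBV15 was used by 12.6% of the Il7r positive cells against 28.5%, TRBV17 by 2.11% against 8.69% and TRBV29 by 2.11% against 7.68%. The call TRBV12-2+TRBV13-2, which the contig table gives where both segments match, was used by 36.8% against 24.1%, and TRBV12-2 alone by 9.47% against 3.87%.

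Rare TRB sequences made up a larger share of the Il7r positive cells. The 160 families seen in a single cell held 18 of the Il7r positive cells, so 11.2% (6.81% to 17.2%) of these single cells were positive, against 1.89% (0.868% to 3.56%) of the 476 cells of family 1. They made up 18.9% (11.6% to 28.3%) of the Il7r positive cells with a family and 6.67% (5.56% to 7.93%) of the undetected ones. Together the 230 families below 30 cells held 40 Il7r positive cells, 42.1% of them against 25.6% of the undetected cells. Il7r positive cells belonged to 46 families and undetected cells to 200, of which 28 were shared, that is 28 of the 46 and 28 of the 200. Sequencing errors can split a family into rare ones: 1 of the 46 and 9 of the 200 lay within 2 edits of 1 of the 11 largest families.

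The Il7r level of whole families, with every cell of a family counted, varied as well. It was highest in family 11 with 151 CPM (exact Poisson interval 89.8 to 239), then 97.9 in family 8, 87.0 (72.3 to 104) in family 2, 85.5 in family 5 and 61.5 in family 6. Lower came family 7 with 45.0, family 3 with 41.0, family 9 with 39.1, family 1 with 33.5 (24.3 to 45.0), family 10 with 25.6 and family 4 with 13.5 (4.39 to 31.6). Neighbours in this order had overlapping intervals throughout, and the intervals of families 11 and 2 lay above those of families 1 and 4. The plot of Il7r by TRB family shows the levels beside the shares in each class.

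**Figure D1:**
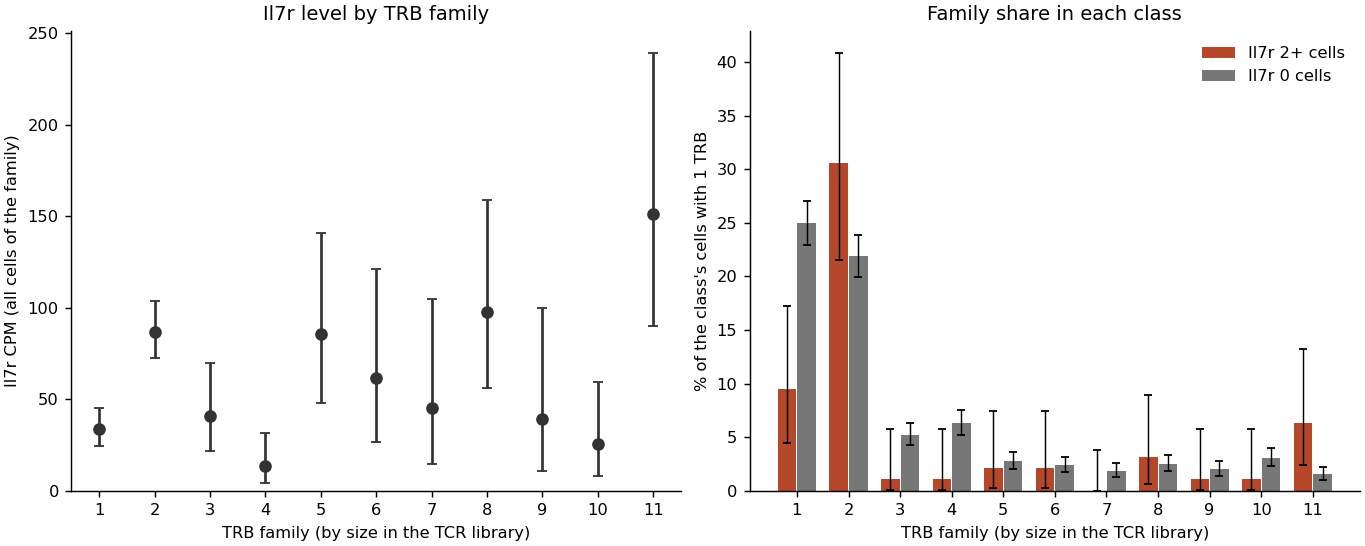
Il7r by TRB family for the 11 families of at least 30 cells, ordered by size in the TCR library. Left, Il7r CPM over all cells of a family with its exact Poisson interval, highest in family 11 (151) and lowest in family 4 (13.5). Right, the share of each family among Il7r positive and Il7r undetected cells with 1 productive TRB, with exact binomial intervals, where family 1 makes up 9.47% of the positive and 24.96% of the undetected cells.

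Across these 11 families, gene levels that went with Il7r were ranked by Spearman correlation over 3281 genes at 50 CPM or more. The points share 1 library and 7 families rest on fewer than 60 cells, so the values are descriptive. The closest genes were Ypel3 (0.86), Rtcb (0.85), Dcps, Pigx and Prpf4b (0.84 each). These are the top of 3281 genes ranked over 11 points, so high values were largely fixed by that choice. Pigx had a Pearson correlation of -0.03, with 999 CPM in family 7, where Il7r was at 45.0. Of the listed genes Jun was at 0.65, Ltb at 0.61, Tcf7 at 0.45 and Ccr7 at 0.35. Others that differed between the classes showed little relation over families, with Itgb1 at 0.24, S1pr1 at 0.14, Ly6a at 0.08, Bcl2 at 0.05, Klf2 at 0.03, Pdcd1 at -0.15 and Lag3 at -0.29. Cytotoxic genes ran against it, with Gzmk at -0.74, Ccl5 at -0.64 and Nkg7 at -0.63. Family 1 stood at 1018 CPM of Gzmk, a granzyme of CD8 T cells, and 372 of Tcf7, and family 4 at 3895 of the chemokine gene Ccl5, while family 11 stood at 42.1 of Gzmk, 219 of Ccl5 and 614 of Tcf7. The order had exceptions: family 10 had little Il7r but 716 CPM of Tcf7, and the families of a single cell had 159 CPM of Il7r together with 2542 of Ccl5.

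**Figure D2:**
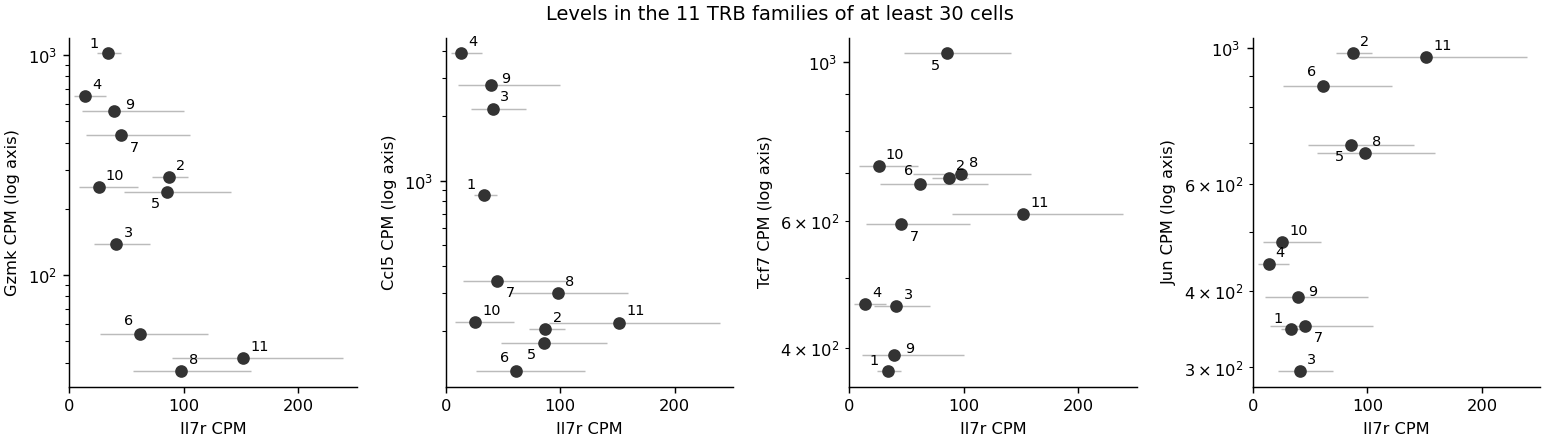
Levels of Gzmk, Ccl5, Tcf7 and Jun (CPM, log axis) against Il7r (CPM) in the 11 TRB families of at least 30 cells, each point a family labelled with its number and the bars the Poisson interval of Il7r. Families 1, 3, 4 and 9 combine low Il7r with Ccl5 of at least 859 CPM, and family 10 has low Il7r with 716 CPM of Tcf7.

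Over all genes, few differed widely between the classes. Counts were summed per class and divided by the class total to give CPM, and the fold is the level in Il7r positive cells over that in undetected cells. Of 3284 genes at 50 CPM or more over both classes, 21 (0.639%) were at least 1.5-fold higher and 91 (2.77%) at least 1.5-fold lower in the Il7r positive cells, and the median fold was 0.975. The undetected cells outnumber the others in that filter, which lets in more genes that are high in them. With 50 CPM required of the mean of both classes, 37 were higher and 51 lower, so the excess of lower genes over higher ones shrinks. With a fold of 1.25, a cutoff chosen after the values were seen, 187 genes (5.69%) were higher and 463 (14.1%) lower.

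Homing and adhesion genes were more often higher than the genes of the other lists. Of 22 listed genes 15 reached 50 CPM, with a median fold of 1.29 against 0.975 over all genes. At 1.5-fold 3 were higher (0.639% of all genes) and 0 lower (2.77% of all). At 1.25-fold 9 were higher (5.69% of all) and 0 lower (14.1% of all). Itgb1, the integrin beta 1 chain, was at 255 CPM against 147 (1.74-fold, 1.49 to 2.02), and Itgb7, the beta 7 chain of gut homing integrins, at 239 against 157 (1.52-fold, 1.30 to 1.77). Itga4, the alpha 4 chain that pairs with either of them, was at 559 against 413 (1.35-fold, 1.22 to 1.495). Ccr7, the chemokine receptor that guides T cells into lymph nodes, was at 93.7 against 56.9 (1.65-fold, 1.27 to 2.11). S1pr1, the receptor for egress from lymphoid organs, had a fold of 1.31, Klf3 of 1.32, Cxcr3 of 1.48 and Cxcr4 of 1.26. Klf2, the factor that controls S1pr1, was at 2744 against 2414, a fold of 1.14. Itgal, the alpha chain of LFA-1, was at 206 against 251 (0.82-fold, 0.69 to 0.96). In thinned cells, 35.9% of the Il7r positive cells had an Itgb1 UMI against 22.9% of the undetected ones and 4 of 28 B cell-like cells. Without thinning these were 46.8%, 30.1% and 7 of 28.

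Memory genes differed less as a group. Of 25 listed genes 17 reached 50 CPM, of which 4 were at least 1.25-fold higher (5.69% of all genes tested) and 2 as much lower (14.1% of all), with a median fold of 1.06. At 1.5-fold 2 were higher (0.639% of all) and 0 lower (2.77% of all), and the 2 were Ly6c2, at 139 CPM against 54.5 (2.54-fold, 2.05 to 3.13), and Ly6a, which encodes Sca-1, at 256 against 132 (1.93-fold, 1.66 to 2.25). Both are Ly6 surface proteins of memory T cells, and reads of Ly6c2 are hard to tell from those of its near copy Ly6c1. The Ly6c2 difference rested on few cells: 27 of the 248 Il7r positive cells (10.9%) had a Ly6c2 UMI, against 4.93% of the undetected ones. Of the 105 Ly6c2 UMIs in the positive cells, 64 lay in the 94 cells with 3 or more Il7r UMIs. Family 2, with 30.5% of the positive and 21.9% of the undetected cells (overlapping intervals), had 447 CPM of Ly6a against 29.7 in family 1. Within family 2 the fold of Ly6a was 1.12 (0.80 to 1.54). It was 2.85 (2.00 to 3.98) in families other than 1 and 2, and 1.90 (1.54 to 2.33) in cells with no family. Family 1 had 4.08 (0.80 to 13.1) on 3 UMIs in its positive cells. Ltb, the lymphotoxin beta gene, was 1.39-fold and Nsg2 1.29-fold higher, and Xcl1, a chemokine gene, and Eomes, a T-box factor, were at 0.70 and 0.73 of the undetected level. Nsg2 and Xcl1 differed by family. Nsg2 was at 0.44 (0.21 to 0.83) in family 2, 1.71 in families other than 1 and 2, and 1.24 with no family. Xcl1 was at 3.11 (1.31 to 6.34) in family 1, 0.55 in family 2, 0.20 in the others and 0.78 with no family. At 1000 to below 2000 UMIs Xcl1 was at 1.02. Tcf7, the central factor of stem-like T cells, was at 698 against 604 (1.16-fold, 1.06 to 1.26). Lef1 and Id3, further factors of that state, had folds of 1.08 and 1.02. Dapl1 lay under the filter with 59.4 CPM against 30.1 (1.98-fold, 1.42 to 2.70), and 13 of the 248 thinned Il7r positive cells (5.24%) had a Dapl1 UMI, against 3.16% of the undetected ones (7.66% and 3.89% without thinning). Of the 28 B cell-like cells, 0 had one after thinning and 1 (3.57%) without it. At this level most cells would hold no Dapl1 UMI even if they expressed it.

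Survival genes stayed close to 1. Of 20 listed genes 11 reached 50 CPM, with 0 at least 1.25-fold higher (5.69% of all genes), 1 as much lower (14.1% of all) and a median of 1.06. None was past 1.5-fold in either direction. Bcl2, the survival gene downstream of interleukin 7, was at 375 CPM against 319 (1.18-fold, 1.04 to 1.33; 0.77 within family 2), and Mcl1, a related survival gene, at 257 against 230 (1.12-fold, 0.96 to 1.29). Bcl2a1d was at 46.2 against 67.4, with reads that its near copies such as Bcl2a1b can share. The widest fold in the list belonged to a gene that promotes death: Bbc3, which encodes PUMA, was under the filter with 71.2 against 37.1 CPM (1.92-fold, 1.42 to 2.55). Bmf, another BH3-only gene, was at 38.3 against 24.1 (1.59-fold, 1.04 to 2.33). The receptor partners and signalling genes of interleukin 7 were level, with a median of 0.994 over 8 genes, Il2rg at 0.91, Jak1 at 1.08 and Stat5b at 0.95. Ets1, a transcription factor, was the 1 gene of that list past 1.25-fold, at 900.0 CPM against 656.

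**Figure D3:**
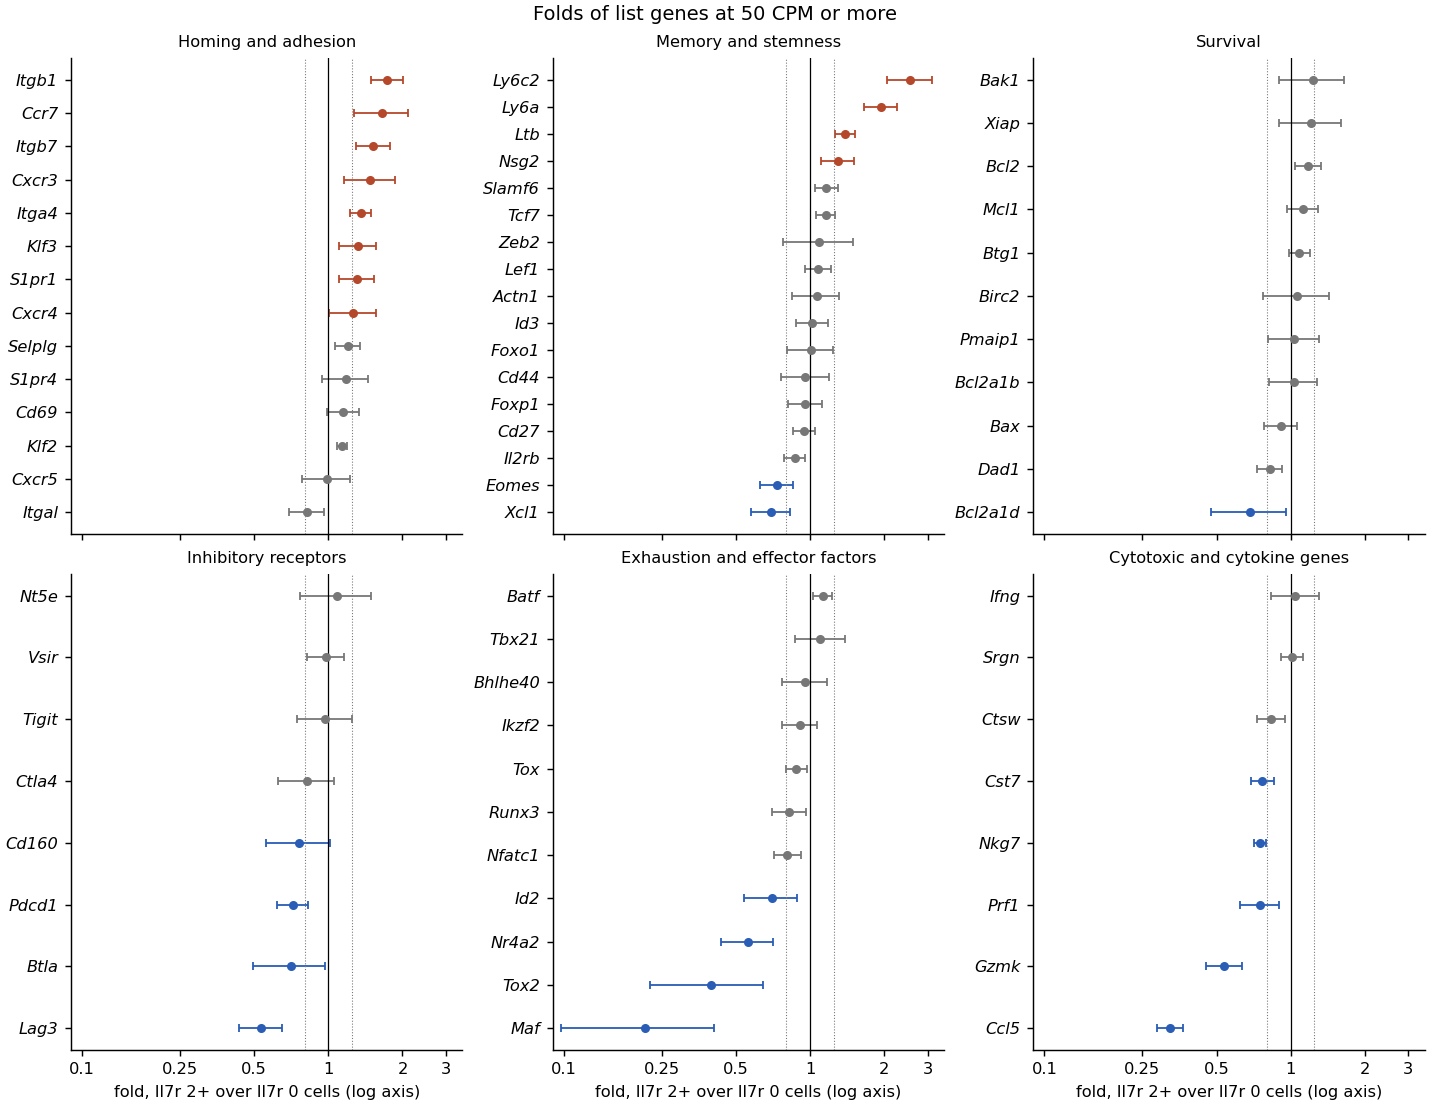
Fold of the listed genes at 50 CPM or more that are reported here, Il7r positive over undetected cells (log axis), with exact conditional intervals and dotted lines at 0.8 and 1.25. The homing genes lie mostly right of 1 (median 1.29), the inhibitory, exhaustion and cytotoxic genes mostly left of it (medians 0.789, 0.823 and 0.759), and survival genes around it (1.06).

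Inhibitory receptor genes were lower over all cells, though their median was 1.08 among the families outside family 1. Of 14 listed genes 8 reached 50 CPM, with a median of 0.789. At 1.5-fold 1 was lower, Lag3 (2.77% of all genes), and 0 higher (0.639% of all), and at 1.25-fold 4 were lower (14.1% of all) and 0 higher (5.69% of all). Lag3 was at 140 CPM against 262 (0.53-fold, 0.43 to 0.65) and Pdcd1, which encodes PD-1, at 259 against 361 (0.72-fold, 0.62 to 0.83). Btla and Cd160 had folds of 0.70 and 0.76, while Tigit stood at 84.4 against 86.8. Havcr2, which encodes TIM-3 and marks late exhaustion, had 0 UMIs in the Il7r positive cells and 102 in the undetected cells, at least 2.10-fold lower when 3 counts are taken as the limit over the class. The low level in both classes leaves little to compare: Havcr2 was at 8.31 CPM even in the undetected cells, where 3 counts in the positive class correspond to 3.96 CPM.

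Transcription factors tied to exhaustion and effector function were lower in part. Of 17 listed genes 11 reached 50 CPM, with a median of 0.823. At 1.5-fold 3 were lower (2.77% of all genes) and 0 higher (0.639% of all). At 1.25-fold 4 were lower (14.1% of all) and 0 higher (5.69% of all). Maf was at 11.9 CPM against 55.6 (0.21-fold, 0.10 to 0.41), Tox2 at 21.1 against 53.4 (0.40-fold, 0.22 to 0.65), and Nr4a2, a factor induced by TCR signals, at 94.99 against 170 (0.56-fold, 0.44 to 0.71). Maf and Tox2, at 53.0 and 51.6 CPM over both classes, passed the filter only through the undetected cells. The count of 3 lower genes therefore leans on the filter. Maf differed by family, with 183 CPM in family 1 and 9.19 in family 2, and its fold was 0.42 in cells with no family. Id2 had a fold of 0.70. Tox, the factor that sets the exhaustion program, was far more alike, at 580.5 against 660 (0.88-fold, 0.80 to 0.97), and Batf was at 666 against 593 (1.12-fold, 1.03 to 1.23).

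Most of the cytotoxic and cytokine genes at 50 CPM or more were lower. Of 17 listed genes 8 reached 50 CPM, with a median of 0.759. At 1.5-fold 2 were lower (2.77% of all genes) and 0 higher (0.639% of all). At 1.25-fold 5 were lower (14.1% of all) and 0 higher (5.69% of all). Ccl5 was at 340.4 CPM against 1050.4 (0.32-fold, 0.29 to 0.37), Gzmk at 195 against 363 (0.54-fold, 0.45 to 0.63), Nkg7, a granule protein gene, at 1858 against 2473 (0.75-fold, 0.71 to 0.79) and Prf1, which encodes perforin, at 161 against 214 (0.75-fold, 0.62 to 0.90). Ifng was level at 112 against 107. The Ccl5 difference rested on few cells: after thinning, cells with 10 or more Ccl5 UMIs were 4 of 248 Il7r positive cells (1.61%, 0.441% to 4.08%) and 217 of 4114 undetected cells (5.27%, 4.61% to 6.00%), and they held 43.5% and 71.7% of the Ccl5 UMIs of their class. Under the filter, Gzmb, which encodes granzyme B, had 1 UMI in the Il7r positive cells and Il21 had 0. Fasl, Ccl3, Ccl4 and Gzmm were also lower, but Il2 and Tnf were not. Il2 was at 17.4, 17.8, 27.5 and 35.0 CPM in cells with 0, 1, 2 and 3 or more Il7r UMIs. Tnf was at 7.98, 6.68, 8.47 and 17.5 CPM, and both rest on few UMIs with overlapping intervals. Of the homing list, Cxcr6, a chemokine receptor of tissue T cells, was at 15.8 CPM against 51.2.

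Outside these lists, the genes of largest fold were a mixed group. Slfn1, a Schlafen gene of quiescent T cells, was at 107 CPM against 56.8 (1.88-fold, 1.48 to 2.37), Icam2, an adhesion ligand, at 161 against 98.9 (1.63-fold, 1.34 to 1.96), and the interferon-inducible gene Ifi27l2a at 379 against 240 (1.58-fold, 1.39 to 1.78). Card19, 9930111J21Rik2, Zfp53, Gramd3, Zrsr2, Clec2i and Epc1 had folds between 1.55 and 1.81. Jun, an AP-1 gene, was at 846 against 547 (1.55-fold, 1.42 to 1.68). Of 12 immediate early and heat shock genes 3 were at least 1.25-fold higher (5.69% of all genes), namely Jun, Hspa1a and Hspa1b, the last 2 near copies. As much lower was 1 (14.1% of all), Egr1, at 54.1 against 86.3. Among the lowest genes, Adam19 had a fold of 0.26, Osr2 of 0.26 and Coch of 0.29. Cd74, Igkc, Hbb-bs, Hba-a1 and Hba-a2 also ranked there, at 0.08, 0.17, 0.18, 0.20 and 0.24, and came from a few undetected cells: 28 cells with B cell markers or over 5% immunoglobulin or haemoglobin UMIs held 87.4% of the Cd74 UMIs of the undetected class, and a single cell held 96.2% of its Hbb-bs UMIs. Without those 28 cells Cd74 was at 0.63, Igkc at 0.67 and Hbb-bs at 4.75. The transcripts of the edited genes were alike in both classes, Bcor at 160 against 170 (0.94-fold, 0.78 to 1.13) and Zc3h12a, which encodes Regnase-1, at 43.5 against 50.7 (0.86-fold, 0.59 to 1.22), and an edit need not remove the transcript.

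Cells with a single Il7r UMI, which the rule left out, lay between the classes for most of the named genes. Of the 15 higher genes named by rule, 13 had an intermediate level in them, and 6 of the 10 lower ones. The lower ones not between were Cd74, Hbb-bs, Hba-a1 and Hba-a2. All were picked as the extremes of the 2 classes, so an intermediate level was largely fixed by that choice. The share over all genes was not counted. Itgb1 stood at 147, 189, 197 and 350.2 CPM in cells with 0, 1, 2 and 3 or more Il7r UMIs, and Ly6a at 132, 161, 191 and 364, so their levels were highest in the 94 cells with the most Il7r. Itga4 was at 413, 499.6, 533 and 602. Ccl5 was at 1050.4, 632, 222 and 536, and Gzmk at 363, 232, 193 and 200. The plot of levels by Il7r count gives the same for 12 genes.

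**Figure D4:**
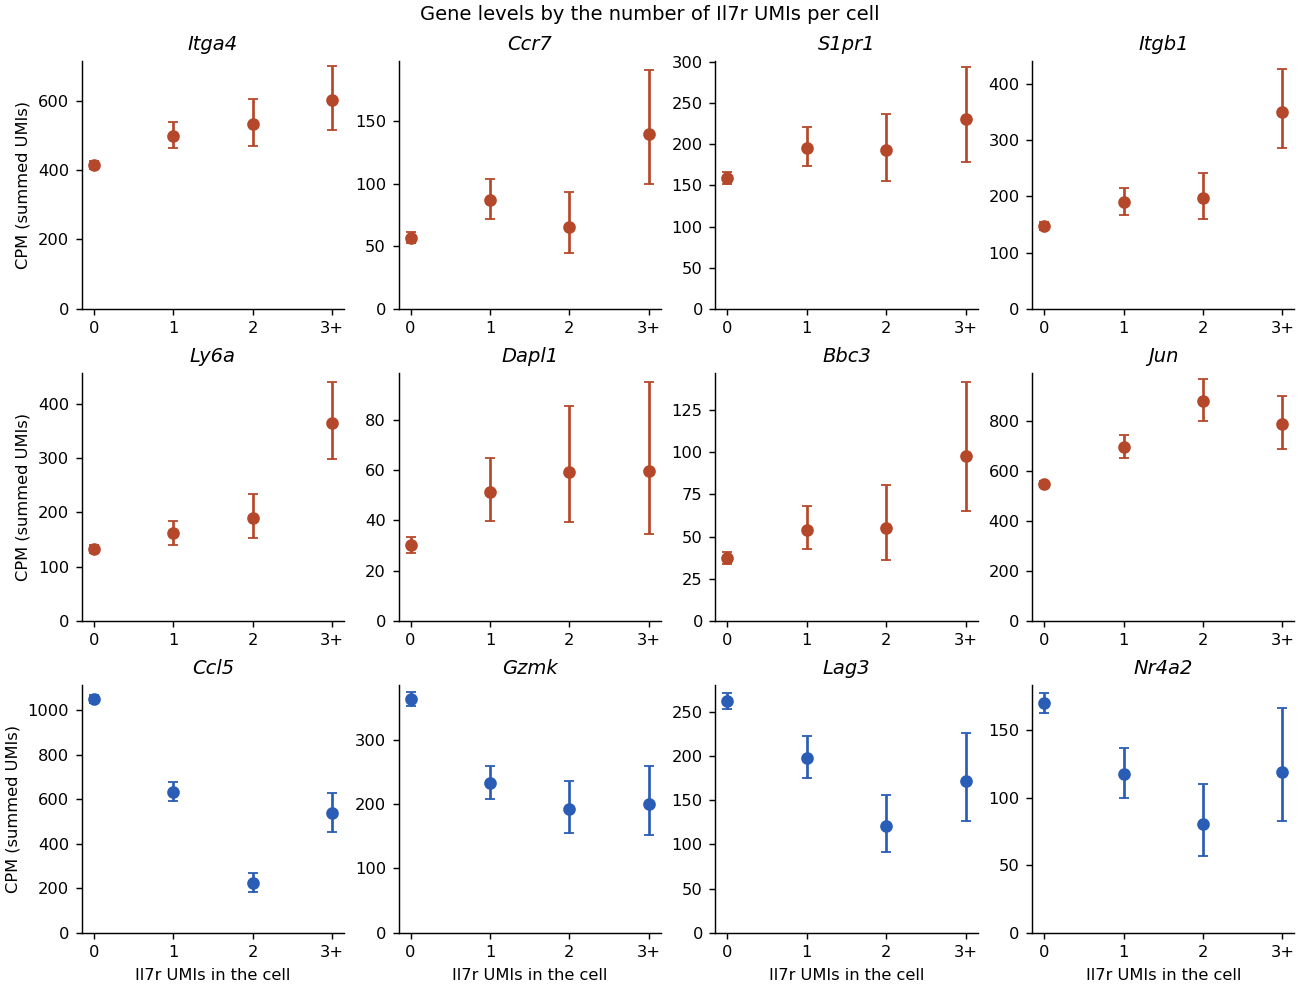
CPM of 12 genes in cells with 0, 1, 2 and 3 or more Il7r UMIs (4114, 439, 154 and 94 cells), with exact Poisson intervals. Itgb1 and Ly6a are highest at 3 or more, Itga4 goes from 413 to 602, and Ccl5 and Gzmk are highest at 0.

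Since families differ in Il7r, the folds were also taken within groups of cells of like TCR. These groups are parts of the same cells from which the 15 higher named genes were picked for their folds, so folds above 1 in the larger parts were largely fixed by that choice. The groups were family 2 (29 positive against 390 undetected cells), the other families apart from family 1 (57 against 948), cells with no TRB family (153 against 2331) and family 1 (9 against 445), where 15, 15, 15 and 11 of the 15 genes had folds above 1. The median fold of the homing genes was 1.14 in family 2, 1.23 in the other families and 1.32 in cells with no family, and 0.919 in family 1. The inhibitory receptor list did not keep its level: its median was 0.786 in cells with no family but 0.956 in family 2 and 0.986 in the other families, and 1.08 over both. Lag3 was below 1 in all of them (0.46 in family 2, 0.82 in the other families, 0.48 with no family), and Pdcd1 was at 0.88, 0.72 and 0.70. Ccl5 was at 0.42, 0.27 and 0.34, whereas Gzmk, at 0.66 and 0.60 in the other families and with no family, was at 1.02 in family 2. Itgb1 was at 1.43, 1.83 and 1.77, and Itga4 at 1.26, 1.22 and 1.37.

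The shallower barcodes of 1000 to below 2000 UMIs were not used by the rule and gave 128 cells with 2 or more Il7r UMIs and 4206 with 0. Of the 15 higher named genes 10 had folds above 1 there, against 44.9% of all genes tested. All 10 lower ones had folds below 1, against 55.1%, but that comparison cannot show a difference shared by the classes. The lower ones include Cd74, Igkc, Hbb-bs, Hba-a1 and Hba-a2, which came from a few undetected cells among the deeper barcodes. Maf, Adam19, Osr2 and Coch passed the filter only through the undetected cells. Whether a few cells also made up the lower genes here was not tested. Ly6c2 (2.30), Ly6a (2.93), Itgb1 (2.11), Itgb7 (1.87) and Slfn1 (1.81) were higher again, and Ccr7 was at 1.07. The homing list was weaker here. Of its 15 genes 4 were at least 1.25-fold higher and 2 as much lower, against 513 and 819 of all 3284 genes. Its median was 1.13 against 0.971 over all genes. S1pr1 was at 1.03, S1pr4 at 0.63 and Cxcr4 at 0.61 (0.36 to 0.99). Dapl1 was at 3.05 and Bbc3 at 2.31. On the lower side Ccl5 was at 0.30, Gzmk at 0.27, Lag3 at 0.67 and Pdcd1 at 0.82, while Maf was at 0.97. These cells come from the same library and are no replicate of it.

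**Figure D5:**
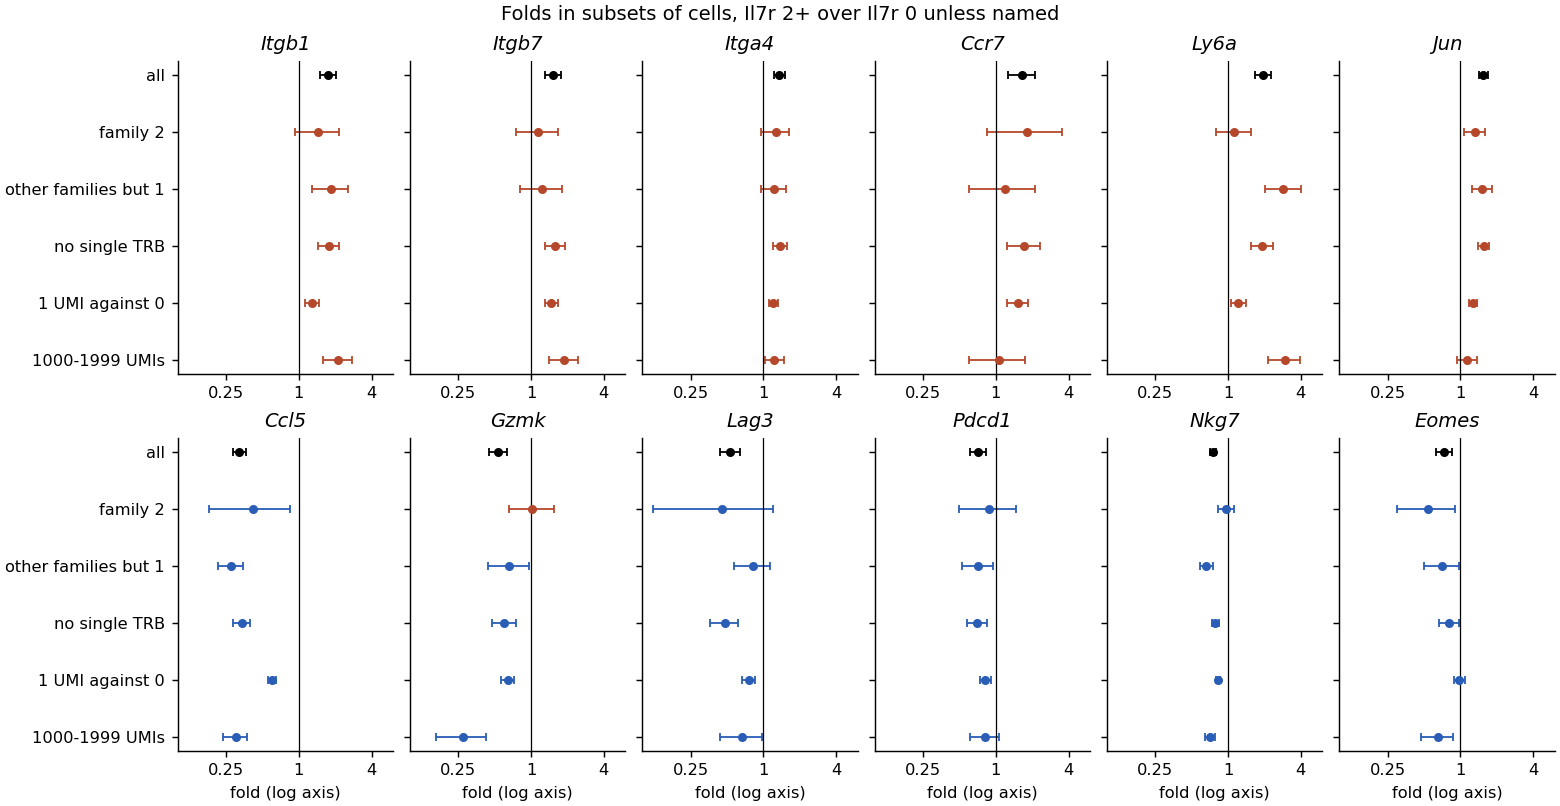
Folds of 12 genes (log axis, exact conditional intervals) over all cells and within family 2, the other families apart from family 1, cells with no TRB family, cells with 1 Il7r UMI against 0, and barcodes of 1000 to below 2000 UMIs. Itgb1 is above 1 and Ccl5 below 1 in each of these groups, while Gzmk is at 1.02 in family 2.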

How the data were processed

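The authors deposited raw UMI counts, not normalized, for 20794 genes in each RNA barcode, and a contig table with UMI counts per TCR contig. Per the submitters' processing notes, cutadapt 1.17, STAR 2.6.1a, featureCounts 2.0.1 and GRCm38 were used. For the TCR contigs, the assembler was not given in the sources used here. Members and gene lists were chosen with earlier results of these data known.

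Class totals were 757971 UMIs (Il7r positive) and 12276525 UMIs (undetected), so 3 UMIs correspond to 3.96 and 0.244 CPM. Folds of summed counts have exact conditional intervals, levels exact Poisson intervals and shares exact Clopper-Pearson intervals, for counting error only. Thinning drew 2000 UMIs per cell (seed 7), and no cell was left out by it. Libraries were joined on the barcode: 4590 of 5479 TCR barcodes were in the RNA matrix. Doublets were not called, and an alternative left out barcodes with 2 TRB or over 6000 UMIs. Il7r itself stayed out of the counts of genes. Genes named are those of the lists and markers, and the 15 highest and 10 lowest folds past 1.5 at 50 CPM or more whose interval leaves out 1. Of the listed genes, Cd244a was matched by its identifier. Sequences come from the deposited contig table. Python 3.11.15, numpy 2.4.6, scipy 1.17.1 and pandas 2.3.3 were used, and the fold script was tested on simulated data. Of 22 alternatives, 6 were chosen after seeing the data. Some listed genes enter the counts and medians but are not reported here by name.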

Additional observations from a re-analysis of the deposited data

How the results depend on the processing

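The 21 higher and 91 lower genes are counts past a fixed fold, and folds of a class with fewer UMIs vary more. They were 14 and 84 from 1500 UMIs, 21 and 91 under 10% mitochondrial UMIs, 22 and 95 with depth matched, 21 and 116 without likely doublets, and 21 and 85 without cells of other lineages. Other Il7r thresholds gave 3 and 20 (1 or more UMIs), 77 and 305 (3 or more), and 4 and 22 (exactly 1, added). Other cells gave 72 and 230 (at least 3000 UMIs), 118 and 402 (1000 to below 2000 UMIs, added) and 89 and 272 (thinned). By TRB family they were 87 and 309 outside family 1, 630 and 1297 within it (9 positive cells), 84 and 288 with family makeup matched, 363 and 647 in family 2 (added) and 48 and 157 with no family (added). Filters gave 121 and 427 (20 CPM), 2299 and 8317 (none) and 37 and 51 (mean of both classes, added), and scaling without mitochondrial, ribosomal and Gm42418 UMIs 57 and 151. The share of family 1 among Il7r positive cells, 9.47%, was 8.11% to 15% under the others and 1.80% by deposited clonotypes, which give 13.5% of undetected cells.

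Of the genes followed across the alternatives, folds past 1.5 in either direction that crossed 1 were, in family 1, Ly6c2 0, Card19 0.61, 9930111J21Rik2 0, Clec2i 0.68 and Dapl1 0. In family 2 they were Nr4a2 1.31, Gzmk 1.02, Tox2 2.35, Dapl1 0 and Cxcr6 1.93. With exactly 1 Il7r UMI they were Icam2 0.87, Zrsr2 0.86 and Cd74 1.23. At 1000 to below 2000 UMIs they were Card19 0.89, Gramd3 0.93, Icam2 0.97, Zrsr2 0.78 and Epc1 0.79. Hbb-bs, Hba-a1 and Hba-a2 were 6.45, 7.86 and 16.43 with no family, and 4.75, 4.98 and 11.35 without other lineages. Smaller folds that crossed 1 were S1pr1 0.59, Klf2 0.71 and Pdcd1 1.09 in family 1, and Bcl2 0.77 and Klf2 0.99 in family 2. Apart from the haemoglobin genes, the cause was not tested. Some of these folds cannot show a reversal, because they rest on 0 or 1 UMIs in the positive cells. In family 1, 3 UMIs correspond to 107 CPM in the positive cells. The undetected cells of that family had 9.79 CPM of Ly6c2 and 7.34 of Dapl1. Their folds of 0 had intervals of 0 to 15.7 and 0 to 22.1. In family 2 the fold of Dapl1 had an interval of 0 to 9.39, and that of Cxcr6 rested on 1 UMI. No paired analysis was possible because each kind of library was made once.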
